A study of Mus musculus with 10 samples.

Results

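The genes described here encode the subunits and activators of the proteasome, the E2 ubiquitin-conjugating enzymes of the Ube2 family, and the numbered ubiquitin-specific proteases of the Usp family. They were chosen by symbol: every non-control probe set annotated to a single gene whose symbol began with Psma, Psmb, Psmc, Psmd, Psme, Ube2, or Usp followed by a digit, with the inducible subunits Psmb8 and Psmb9 left out. This gave 88 of 8251 named genes on the array, measured by 119 of its 12422 non-control probe sets. Of these, 96 probe sets for 76 genes were bright enough to be tested, and each gene was summarised by the brightest of its probe sets over the 10 arrays. The prefix also took in Psmc3ip and Psme3ip1, which encode interacting proteins and not subunits.

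RNA was compared on one-colour Affymetrix arrays between the hemispheres of the visual cortex of wild-type C57Bl6 mice that had lost one eye at postnatal day 14. Deprived cortex (5 samples) lay opposite the lost eye and non-deprived cortex (5 samples) on its own side, and both were taken at postnatal day 18, 4 days after surgery. All 10 samples therefore carried the enucleation, and no cortex from intact animals was compared. The labels name 4 mice and pooled samples without saying which animals entered which of the 10 samples, so p-values measure the spread between these samples, which may in part be technical. The design asks how loss of the main visual input alters transcript levels in the cortex that received it. Tissue was measured in bulk, so fewer cells of a type and less RNA per cell cannot be told apart.

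The ubiquitin-proteasome system is the main route by which cells destroy short-lived and damaged proteins. An E1 enzyme activates ubiquitin, an E2 enzyme carries it, and an E3 ligase brings the E2 to the protein that is to be marked; deubiquitinases such as the Usp proteases take ubiquitin off again. The 26S proteasome, a 20S barrel of alpha and beta rings capped by a 19S regulator, recognises, unfolds and cuts the marked proteins. In neurons the system turns over synaptic scaffolds, receptors and signalling proteins, and proteasome activity is needed for lasting forms of synaptic plasticity.

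No member passed the adjusted threshold, and the estimated differences between the hemispheres were small for most members. At an adjusted p of 0.05 (limma with Benjamini-Hochberg adjustment over all 7453 tested probe sets), 0 of the 96 tested member probe sets and 0 of all tested probe sets (0% called) passed. The smallest adjusted p of a member was 0.992, which therefore holds as a lower bound for every member described, against 0.0503 over all probe sets. At an unadjusted p of 0.05, 1 of 96 member probe sets (1.04%) was called by limma, against 357 of 7453 (4.79%). That member, Ube2h, was lower in deprived cortex, a direction that held 176 probe sets (2.36%) over the whole array. No member was called higher, against 181 probe sets (2.43%). The median log2 difference of the 76 genes, deprived minus non-deprived on the log2(signal + 16) scale used throughout, was -0.03, with 50 below 0 and 26 above. The median over all tested probe sets was 0.0066. Counted by probe set, 59 of 96 members (61.5%) lay below 0, against 48% of all tested probe sets; median scaling of the arrays gave 68.8% against 58.1%, and quantile normalization 57.3% against 50%. The 95% interval of 71 of the 76 genes lay within 0.5 of 0 in either direction, and the median standard error was 0.11. Over all tested probe sets, 5704 of 7453 intervals did so, with a median standard error of 0.13. The median absolute difference was 0.07 for the 76 genes and 0.09 for all tested probe sets.

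**Figure D1:**
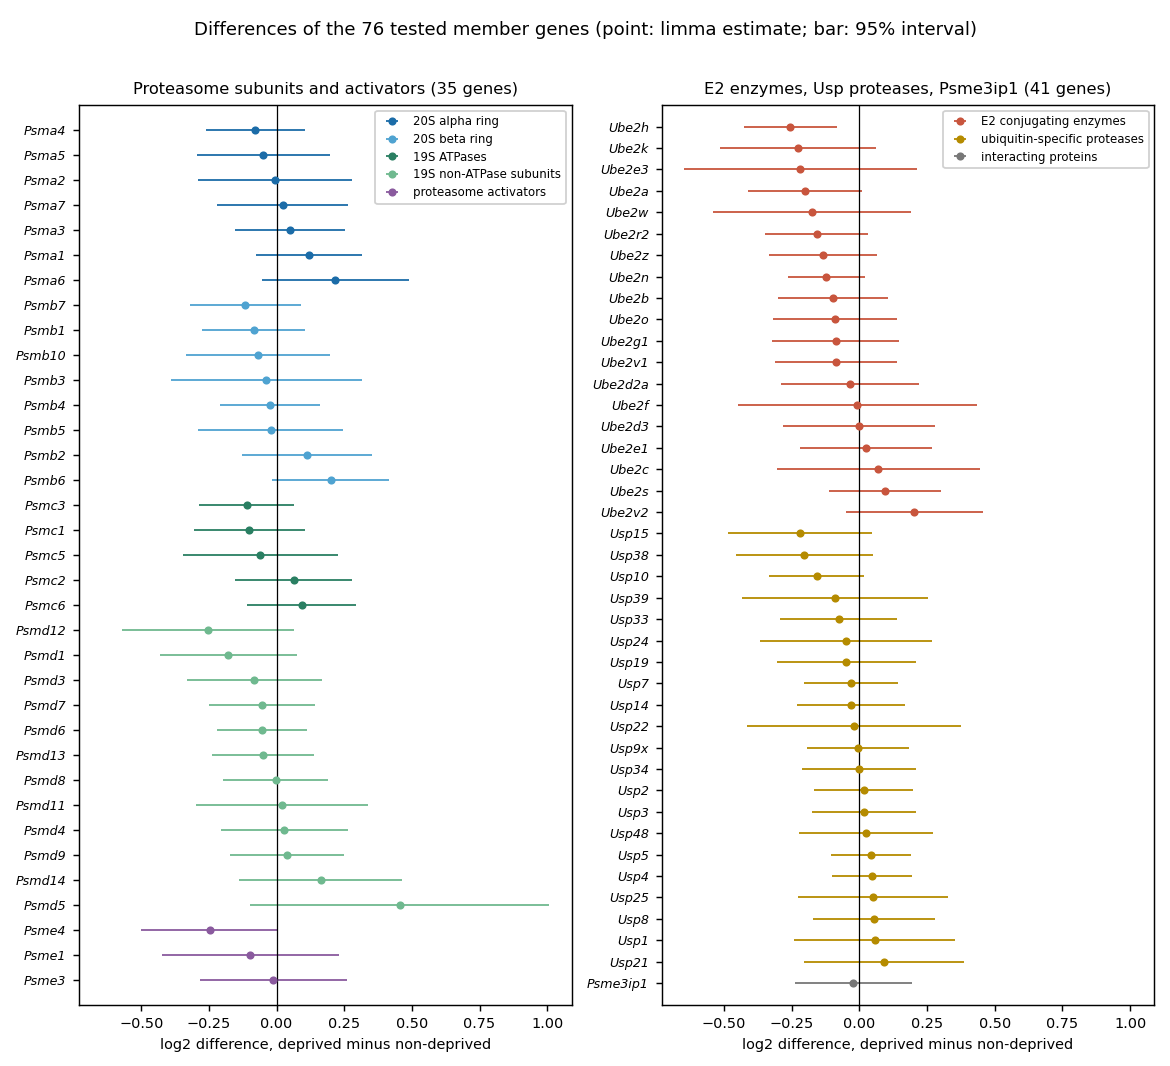
Log2 difference, deprived minus non-deprived, of the 76 member genes with a tested probe set, grouped by class; points are limma estimates and bars are 95% intervals from 5 against 5 arrays. Ube2h is the gene whose interval lies wholly below 0, and the widest interval reaching above 0.5 is that of Psmd5.

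The E2 enzymes were the class with the lowest median among those with more than 3 tested genes. Of 19 tested E2 genes, 15 lay below 0 and 4 above, where 48% of all tested probe sets lay below 0. The E2 median was -0.09, with a range of -0.26 to 0.20. Median scaling gave a median of -0.12. Of the 19 genes, 1 reached an unadjusted p under 0.05, against 4.79% of all tested probe sets, and none passed the adjusted threshold. Each array was also given a class value, the median over the class of each gene's deviation from its own mean over the 10 arrays. For the E2 enzymes this value was -0.03, -0.10, -0.03, -0.02 and -0.0055 on deprived arrays 1 to 5, a mean of -0.04 ± 0.04 (SD, n = 5). On non-deprived arrays 1 to 5 it was 0.05, 0.09, 0.05, 0.06 and 0.05, a mean of 0.06 ± 0.02 (SD, n = 5). The groups did not overlap as deposited, under quantile normalization (deprived at most 0.02, non-deprived at least 0.04) or under median scaling (0.02 and 0.04). Every other class overlapped between the groups under each scaling. Over all tested probe sets, the value as deposited ran from -0.0031 to 0.033 on deprived and from -0.0031 to 0.010 on non-deprived arrays. How often other gene sets of this size separate was not examined. The class value is a description and was not tested.

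Ube2h, an E2 enzyme that works with the large multi-subunit CTLH ligase, had the smallest unadjusted p of all members. Its signal was 1146, 1046, 1022.5, 1059 and 986 on deprived arrays 1 to 5. On non-deprived arrays 1 to 5 it was 1124, 1259, 1314, 1358 and 1248. All 5 deprived arrays lay below the non-deprived mean, and the groups overlapped only through array 1 of each. The means were 1052 ± 59.5 and 1261 ± 88.4 (SD, n = 5), a log2 difference of -0.26 with a standard error of 0.08 and a 95% interval of -0.43 to -0.08. The signal was 16.3% lower in deprived cortex on the scale with 16 added. Its limma p was under 0.05 unadjusted but not after adjustment over the array (adjusted p = 0.992). A further probe set for Ube2h, with wider spread, had a log2 difference of -0.07 and an interval of -0.47 to 0.33, which holds both 0 and the estimate of the first.

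The RefSeq promoters of the members (GRCm38.p6, 250 bases before to 50 bases after each start) were available for 68 of the 88 genes. They were searched on both strands for a palindromic cAMP response element, TGACGTCA, the letters bound by the activity-regulated factor CREB. It lay in 2 of 16 E2 genes with a promoter, Ube2h and Ube2b, in 1 of 18 Usp genes, and in 0 of 29 genes of the 20S and 19S subunits. The share was 3.53% of 4564 genes with a tested probe set and a promoter, and 2.03% of all 27025 genes with a promoter. Both E2 windows are shown because they hold the searched letters, in capitals, close to an annotated start. Each is printed 5′ to 3′ along its gene, on the minus strand, with flanks of equal length.
Ube2h (chr6:30304536-30304583): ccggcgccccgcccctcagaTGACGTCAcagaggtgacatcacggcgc
Ube2b (chr11:52000760-52000807): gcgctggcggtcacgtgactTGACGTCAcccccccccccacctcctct
The capitals begin 24 bases before the start in Ube2h and 1 base before an annotated start in Ube2b. Ube2b also has another annotated start, whose promoter did not hold these letters. A match is a description of letters and not of binding. Ube2b, an E2 enzyme of the Rad6 type, had a log2 difference of -0.10 with a standard error of 0.09. All 5 of its deprived values were below the non-deprived mean, but the groups overlapped.

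Ube2n carries ubiquitin for chains that signal without destruction, and forms such chains only together with the catalytically inactive partners Ube2v1 or Ube2v2. Its signal was 1671, 1735, 1639, 1722.5 and 1662 on deprived arrays 1 to 5 and 1761, 1904, 1819, 1896 and 1803 on non-deprived arrays 1 to 5. It was the one member probe set of 96 (1.04%) whose groups did not overlap, against 71 of 7453 (0.953%) over the array. Means were 1686 ± 40.9 and 1837 ± 61.6 (SD, n = 5), a log2 difference of -0.12 with a standard error of 0.07 and an interval of -0.27 to 0.02 (limma adjusted p = 0.992). The share of members without overlap was thus close to the background share. Of its partners, Ube2v1 had a log2 difference of -0.09 with a standard error of 0.11. Ube2v2 had a log2 difference of 0.20 with a standard error of 0.12, the highest estimate among the E2 enzymes.

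Ube2a, the closest relative of Ube2b, had signals of 465, 379, 445, 453 and 375 on deprived arrays 1 to 5. Its non-deprived signals were 450, 485, 548, 473 and 486 in the same order of replicate numbers. All 5 deprived values were below the non-deprived mean of 488.5 ± 36.4 (SD, n = 5), with overlap at the non-deprived array 1. The log2 difference was -0.20 with a standard error of 0.10 and an interval of -0.41 to 0.0091. Ube2k, which builds chains that direct proteins to the proteasome, had log2 differences of -0.23 ± 0.13 (SE) and -0.16 ± 0.09 (SE) on its 2 probe sets. Ube2r2, which works with cullin-based SCF ligases, had -0.16 ± 0.09 (SE). Ube2g1 had -0.09 ± 0.11 (SE). None of these passed the adjusted threshold.

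Several E2 enzymes act in narrower settings. Ube2f, which carries the ubiquitin-like protein Nedd8 to cullins, had a log2 difference of -0.0075 with a standard error of 0.21, among the widest of the class. Ube2l6, the interferon-induced E2 enzyme of the ubiquitin-like protein Isg15, was too dim to be tested, at 33.3 ± 9.29 in deprived and 46.8 ± 32.1 in non-deprived cortex (SD, n = 5). Ube2c and Ube2s, which serve the anaphase-promoting complex in dividing cells, had log2 differences of 0.07 and 0.09. Ube2e3 and Ube2w had -0.22 ± 0.20 and -0.17 ± 0.17 (SE), and Ube2e1 had 0.02. Ube2z, which can be charged by the alternative E1 enzyme Uba6, had -0.13 ± 0.09 (SE) on the probe set with the higher mean and 0.06 ± 0.12 (SE) on the other. Ube2d2a and Ube2d3, which work with many ligases, lay at -0.04 and -0.0024, the latter turning to 0.0083 under quantile normalization. Ube2o, which acts as E2 and E3 in one protein, lay at -0.09. Ube2t, an E2 enzyme of DNA repair, was below the filter.

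**Figure D2:**
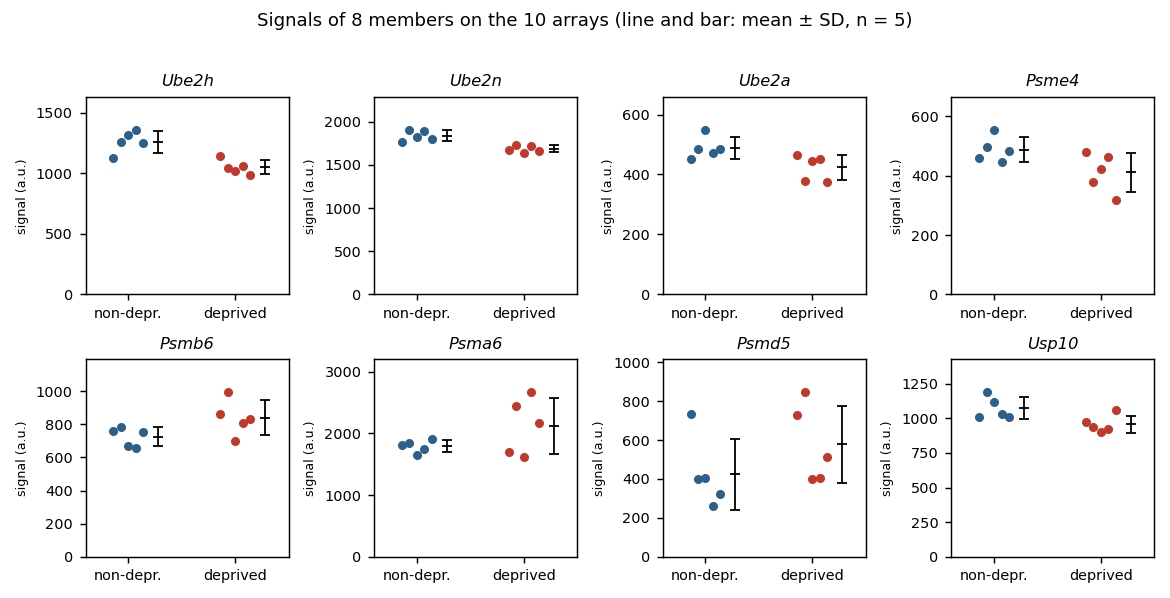
Signal in arbitrary units of 8 members on the 5 non-deprived (blue) and 5 deprived (red) arrays, with the mean and SD of each group beside the points and every axis starting at 0. Ube2n is the member without overlap (1639 to 1735 against 1761 to 1904), and Psma6 spreads from 1621.8 to 2664.5 on deprived and from 1653 to 1905 on non-deprived arrays.

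The alpha subunits form the outer rings of the 20S barrel and its gate. All 7 were tested, with a median log2 difference of 0.02 (-0.01 under median scaling), 3 below 0 and 4 above, and a range of -0.08 to 0.22. Psma6 had the largest estimate of the ring. Its signal was 1704.5, 2445, 1622, 2664.5 and 2175 on deprived arrays 1 to 5, against 1810, 1839, 1653, 1750 and 1905 on the non-deprived arrays. Deprived arrays 2, 4 and 5 lay above every non-deprived array, while deprived array 3 lay below every one. The means were 2122 ± 454 and 1791 ± 95.4 (SD, n = 5), and the log2 difference was 0.22 with a standard error of 0.13 and an interval of -0.05 to 0.49. Psma1 had a log2 difference of 0.12 ± 0.09 (SE), Psma4 -0.08 ± 0.09 and Psma3 0.05 ± 0.09. Psma2, Psma5 and Psma7 lay between -0.05 and 0.02.

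The beta subunits form the inner rings, and in the standard barrel 3 of them carry the cutting sites. All 8 genes were tested, with a median of -0.03 (0.03 over probe sets without a specificity suffix), 6 below 0 and 2 above, and a range of -0.12 to 0.20. Psmb6, the subunit with the caspase-like site, had signals of 863, 992, 698, 806 and 831 on deprived arrays 1 to 5. On the non-deprived arrays it had 760, 781, 670, 657 and 753. Only deprived array 3 lay below the non-deprived mean, and the groups overlapped through that array. The means were 838 ± 106 and 724 ± 56.5 (SD, n = 5), a log2 difference of 0.20 with a standard error of 0.10 and an interval of -0.02 to 0.42. Psmb7, with the trypsin-like site, had -0.12 ± 0.10 (SE). Psmb5, with the chymotrypsin-like site, had -0.02 ± 0.12 and 0.10 ± 0.18 (SE) on its 2 probe sets. The 3 catalytic subunits, which stand in equal number in each barrel, thus had estimates on both sides of 0, and none passed the test.

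Psmb10 replaces Psmb7 in the immunoproteasome, the form induced by interferon. Its signal was 855 ± 155 in deprived and 891 ± 97.3 in non-deprived cortex (SD, n = 5), a log2 difference of -0.07 with a standard error of 0.12. Its partners in that form, which are not counted among the members, were both too dim to be tested, with Psmb8 at 47.1 ± 24.8 and 83.1 ± 20.2 and Psmb9 at 28.6 ± 6.38 and 29.4 ± 12.0 (SD, n = 5). Among the structural beta subunits, Psmb2 had a log2 difference of 0.11 ± 0.11 (SE), Psmb3 -0.04 ± 0.16 and Psmb4 -0.03 ± 0.09. Psmb1 had -0.08 ± 0.09 on its brighter probe set and 0.12 ± 0.14 on the other.

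The 20S subunits were spread more widely over the deprived than over the non-deprived arrays. The alpha-ring class value was -0.18, 0.21, -0.23, 0.25 and 0.0009 on deprived arrays 1 to 5, against -0.04, -0.02, -0.06, 0.03 and 0.02 on the non-deprived arrays. Deprived arrays 2 and 4 were high and arrays 1 and 3 low, with an SD of 0.219 against 0.0396 among the non-deprived arrays (n = 5 each). The beta ring had the same order of deprived arrays, at -0.06, 0.10, -0.15, 0.20 and -0.0028, with an SD of 0.136 against 0.047. Of the 15 genes of both rings, 12 (80%) had the larger SD in the deprived group, against 60.8% of all tested probe sets and 60.5% of the members. The 19S ATPases went the other way, with a class-value SD of 0.067 on deprived against 0.111 on non-deprived arrays. High values on deprived arrays 2 and 4 were not particular to the rings. Outside the members, Pomp, Sem1 and Elob were also highest on these arrays, with Pomp at 1774 and 1753. How many other genes had this order was not counted. The difference in spread was not tested.

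Summed markers of cell types and neighbouring tissues were set beside these arrays. The lists that were highest on deprived arrays 2 and 4 are given first. Deprived arrays 2 and 4 had the highest summed signal of 10 vessel and meninges markers, at 15530 and 15190, where the other 8 arrays had 8593 to 11820. The summed signal of 3 measured red-blood-cell markers was likewise highest there, at 7949 and 6423, against 3487 to 5074 elsewhere. Over the groups, the vessel and meninges sum ran from 8626 to 15530 in deprived and from 8593 to 11820 in non-deprived samples. Ptgds alone gave 9945.9 and 10524.1 of it on deprived arrays 2 and 4. Without it, the other 9 markers summed to 5586 on deprived array 2, the highest of the 10 arrays, but to 4666 on deprived array 4, within the 4350 to 5132 of the non-deprived arrays. The red-blood-cell sum ran from 3487 to 7949 and from 3782 to 5074, of which the globin gene Hba-a1 gave 6315 and 5254 on deprived arrays 2 and 4. Without it, Alas2 and Hbb-b2 summed to 1634 on deprived array 2, again the highest, but to 1169 on deprived array 4, within the 1028 to 1347 of the non-deprived arrays. No marker of either list was at 0. The other lists were not highest on both of these arrays. On deprived arrays 2 and 4, astrocyte markers summed to 22940 and 18830, and oligodendrocyte markers to 19060 and 25300. Microglial markers summed to 5853 and 6276, and markers of thalamus, striatum and hippocampus to 2892 and 2005. The neuronal sum was highest on deprived array 1, at 35190. The part of these cell types in the spread of the 20S subunits was not tested. Among the whole marker lists, 0 of 9 tested vessel and meninges markers and 0 of 3 red-blood-cell markers reached an unadjusted p under 0.05 between the groups. Over all tested probe sets, 4.79% did.

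**Figure D3:**
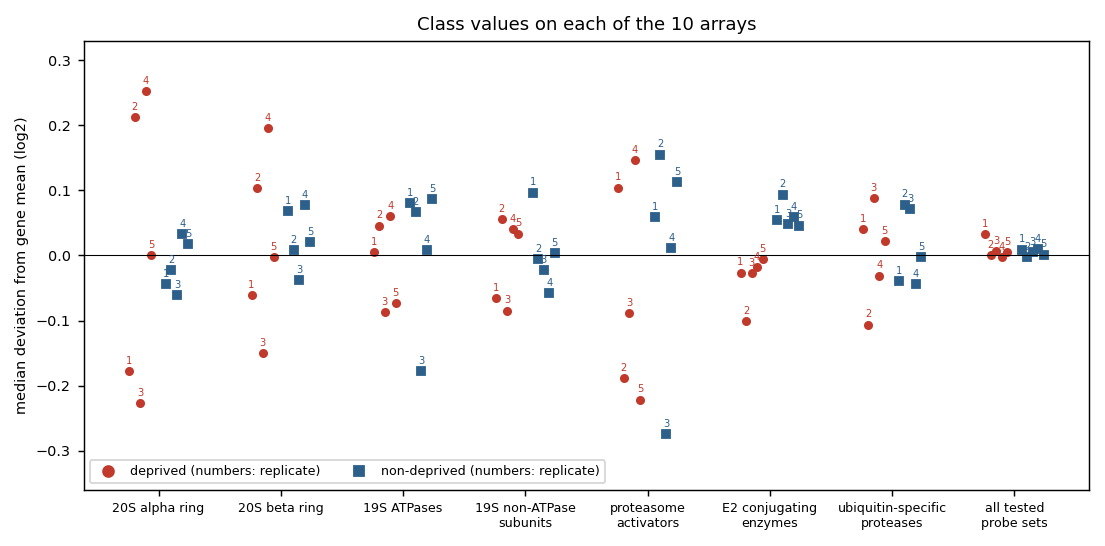
Median deviation (log2) of each class from its genes' own means, on each of the 5 deprived (red circles) and 5 non-deprived (blue squares) arrays, with replicate numbers beside the points. The E2 enzymes lie at -0.10 to -0.0055 on deprived and 0.05 to 0.09 on non-deprived arrays, and the alpha ring spreads from -0.23 to 0.25 on deprived arrays.

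Core promoters of 20S and 19S genes were also searched for CGGAAG, the core bound by factors of the ETS family and common in promoters of housekeeping genes. It lay on either strand in 13 of 17 genes (76.5%) of the 19S subunits with a promoter, but in 4 of 12 (33.3%) of the 20S rings, which together make 17 of 29 (58.6%). It lay in 6 of 16 E2 genes (37.5%) and in 8 of 18 Usp genes (44.4%). The share was 34.9% of the 4564 genes with a tested probe set and 18.8% of all 27025 genes. The ring share was thus near that of the tested genes, and the pooled share came from the 19S genes. The windows show a match near an annotated start in one gene of each ring and each part of the regulator. Capitals mark the match, written CTTCCG where it lies on the opposite strand, and each window runs 5′ to 3′ along its gene.
Psma6 (chr12:55398804-55398849, plus strand): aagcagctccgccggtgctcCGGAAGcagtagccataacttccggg
Psmb4 (chr3:94886937-94886982, minus strand): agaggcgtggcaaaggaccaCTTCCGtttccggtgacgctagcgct
Psmc2 (chr5:21786703-21786748, plus strand): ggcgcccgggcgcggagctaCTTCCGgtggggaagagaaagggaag
Psmd13 (chr7:140882369-140882414, plus strand): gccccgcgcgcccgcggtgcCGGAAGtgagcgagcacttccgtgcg
The matches in capitals begin 1, 4, 24 and 5 bases before an annotated start in this order. The Psma6 and Psmd13 windows each hold a further match in small letters, cttccg, 17 and 11 bases after the start. The cores of the antioxidant response element, TGACNNNGC and TGAGNNNGC, lay in 17.2% and 37.9% of the 20S and 19S genes, against 16.7% and 22.9% of genes with a tested probe set. The AP-1 letters TGANTCA lay in 6.9% against 6.55%.

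The 6 Psmc ATPases form the ring of the 19S regulator that unfolds proteins and opens the gate of the barrel. The 5 tested genes had a median log2 difference of -0.06 (0.0019 over probe sets without a specificity suffix) and a range of -0.11 to 0.09, with 3 below 0 and 2 above. Psmc3 had -0.11 ± 0.08 (SE) on its brightest probe set, where 4 of 5 deprived arrays lay below the non-deprived mean. Its 3 probe sets ran from -0.11 to 0.05. Psmc1 had -0.10 ± 0.10 (SE), Psmc2 0.06 ± 0.10, Psmc5 -0.06 ± 0.13 and Psmc6 0.09 ± 0.09. Psmc4 was below the filter, at 64.7 ± 17.6 in deprived and 33.5 ± 28.3 in non-deprived cortex (SD, n = 5).

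Most of the Psmd genes encode the remaining subunits of the regulator, which dock ubiquitin, remove it and hold the complex together. Of 14 Psmd genes, 12 were tested, with a median of -0.03, 7 below 0 and 5 above, and a range of -0.25 to 0.46. Psmd5, an assembly chaperone that is not part of the finished regulator, had the highest estimate of all members and the widest interval. Its signal was 727, 845, 397, 406 and 511 on deprived arrays 1 to 5, against 732, 399.9, 403, 259.7 and 322 on the non-deprived arrays. Array 1 was high in both groups, and the groups overlapped over most of their range. The means were 577 ± 200 and 423 ± 183 (SD, n = 5), a log2 difference of 0.46 with a standard error of 0.26 and an interval of -0.10 to 1.01.

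Psmd12, a scaffold subunit of the lid, had a log2 difference of -0.25 ± 0.15 (SE), with 4 of 5 deprived arrays below the non-deprived mean. Psmd1, the large scaffold of the base, had -0.18 ± 0.12 (SE). Psmd14, the metalloprotease that strips ubiquitin from proteins entering the barrel, had 0.16 ± 0.14 (SE). Psmd3 had -0.08 ± 0.12 (SE), and the 3 probe sets of Psmd11 ran from -0.03 to 0.10. Psmd4, a ubiquitin receptor, had 0.03 ± 0.11 (SE). The other tested genes, Psmd6, Psmd7, Psmd8, Psmd9 and Psmd13, lay between -0.05 and 0.04. Psmd2 and Psmd10 were below the filter.

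The 3 activators with a single-gene probe set all had estimates below 0. Psme4, the large nuclear activator, had signals of 479.9, 378, 421, 462 and 318 on deprived arrays 1 to 5, and 459.8, 498, 554, 445 and 483 on non-deprived arrays 1 to 5. All 5 deprived arrays lay below the non-deprived mean, while the ranges overlapped between 445 and 479.9. The means were 412 ± 65.7 and 488 ± 42.2 (SD, n = 5), a log2 difference of -0.25 with a standard error of 0.12 and an interval of -0.50 to 0.0068. Psme1, a subunit of the interferon-induced activator, had -0.10 ± 0.15 (SE), and Psme3, a nuclear activator, -0.01 ± 0.13. The intervals of all 3 included 0.

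The Usp proteases were the class nearest to 0 in the values as deposited, but under median scaling the alpha ring was nearer, at -0.01. Of 27 genes, 21 were tested, with a median of -0.0051 (0.02 under quantile normalization, -0.04 under median scaling), 12 below 0 and 9 above. Their range was -0.22 to 0.09, and all 21 intervals lay within 0.5 of 0. Usp10 had the smallest p, with signals of 974, 939, 903, 920.3 and 1058 on deprived arrays 1 to 5. The non-deprived arrays had 1013, 1188, 1121, 1031 and 1010.2. Deprived arrays 1 to 4 lay below every non-deprived array, and array 5 lay within their range. The log2 difference was -0.16 with a standard error of 0.08 and an interval of -0.33 to 0.02. Usp15 had -0.22 ± 0.12 and -0.12 ± 0.25 (SE) on its 2 probe sets, and Usp38 had -0.20 ± 0.12 and -0.25 ± 0.13.

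Usp14, which sits on the proteasome and trims ubiquitin from its substrates, had a log2 difference of -0.03 with a standard error of 0.09. Usp5, which recycles free ubiquitin chains, had 0.04 ± 0.07 (SE), and Usp4 0.05 ± 0.07. Usp7 had -0.03 ± 0.08 on its brighter probe set, Usp8, an endosomal deubiquitinase, 0.05 ± 0.10 and Usp33 -0.08 ± 0.10. Usp9x had -0.0051 ± 0.09 on its brighter probe set (0.02 under quantile normalization) and 0.17 ± 0.10 on the other. Usp34 lay at -0.0010 (0.02 under quantile normalization), Usp2 at 0.02 and Usp3 at 0.02 (-0.02 and -0.01 under median scaling, in this order). The remaining tested genes, Usp1, Usp19, Usp21, Usp22, Usp24, Usp25, Usp39 and Usp48, lay between -0.09 and 0.09 on their brightest probe sets. The dimmer probe set of Usp19 had 0.22 ± 0.25 (SE). Usp18, which removes Isg15, was below the filter, as were Usp12, Usp17la, Usp17lc, Usp29 and Usp42.

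Probe sets of one gene often differed in the sign of their estimates. Of 18 member genes with 2 or more tested probe sets, 7 had all estimates on one side of 0 and 11 had estimates on both sides. The share over all genes of the array with several probe sets was not counted. The median gap within a gene was 0.125 on the log2 scale. The median absolute difference over the 76 genes was 0.07, but it measures single estimates of the brightest probe sets and not gaps. All estimates were below 0 for Ube2d2a, Ube2h, Ube2k, Ube2o, Usp15 and Usp38, and above 0 for Usp3 (the brighter probe set of Usp3 turning to -0.01 under median scaling). Psmb1, Psmb5, Psmc3, Psmd11, Ube2d3, Ube2z, Usp2, Usp7, Usp9x, Usp19 and Usp34 had estimates on both sides.

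**Figure D4:**
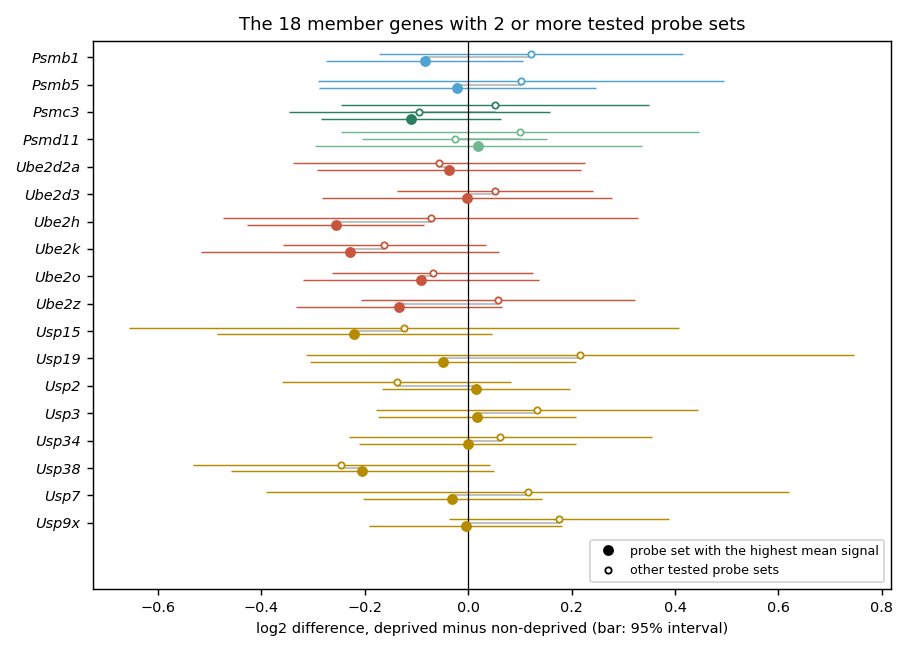
Log2 difference, deprived minus non-deprived, of every tested probe set of the 18 member genes with 2 or more; filled points are the probe set with the highest mean, open points the others, and bars are 95% intervals. All 18 genes have intervals that overlap between their probe sets, and the median gap between the estimates of a gene is 0.125.

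The 23 member probe sets below the filter had mean signals of 9.07 to 116.5 and left 12 genes without a test. Without the filter, Psmc4 also reached an unadjusted p under 0.05, higher in deprived cortex, which made 2 of 119 member probe sets (1.68%) against 5.03% of all probe sets.

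Other genes of the pathway were examined as lists. Of 102 measured genes outside the members, 93 were tested, with a median of -0.01. Limma called 0 at the adjusted threshold, and 1 lower and 3 higher at an unadjusted p under 0.05. Over all tested probe sets, 2.36% were called lower and 2.43% higher at that unadjusted level. Of those called higher, Faf1, a ubiquitin-binding adaptor, had a log2 difference of 0.56 ± 0.20 (SE), with all 5 deprived arrays above the non-deprived mean, but its other tested probe sets gave 0.07 and -0.16. Anapc11, the RING subunit of the anaphase-promoting complex, had 0.35 ± 0.14, and the ligase Rnf13 had 0.45 ± 0.18, with 0.07 ± 0.14 on its other tested probe set. The gene called lower was the ligase Rnf4, with -0.36 ± 0.15. Of 54 tested E3 ligases and adaptors, 1 was lower and 2 higher at this unadjusted level, with a median of -0.0069. The shares over all tested probe sets were again 2.36% and 2.43%.

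The upstream steps had small estimates. All 4 measured E1 enzymes lay below 0, with a median of -0.08, among them Uba7 at -0.22 ± 0.16 (SE), Sae1 at -0.07 ± 0.08 and Uba3 at -0.09 ± 0.18. The 4 tested ubiquitin and ubiquitin-like genes had a median of -0.08, with Sumo3 at -0.06 ± 0.06, Ufm1 at -0.10 ± 0.11 and Urm1 at -0.19 ± 0.22. The 4 E2 enzymes and relatives with other names also had a median of -0.08, with Cdc34 at -0.12 ± 0.13, Aktip at -0.12 ± 0.11 and Ubl3 at -0.05 ± 0.10. Another 6 tested genes, deubiquitinases and proteases of ubiquitin-like proteins, had a median of 0.01. Senp3, of the latter kind, lay at -0.11 ± 0.08, Josd2 at -0.13 ± 0.12 and Otub1 at 0.18 ± 0.22. Of 18 chaperones and regulators of the proteasome, 9 lay on each side of 0, including the assembly chaperones Psmg3 at 0.21 ± 0.11 and Psmg2 at -0.24 ± 0.18. The 5 tested genes of the immunoproteasome list, which includes Psmb10 and Psme1, had a median of -0.07, with Tapbp at 0.24 ± 0.14 and Tap1 at -0.17 ± 0.17. None of these named genes passed the adjusted threshold.

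The 8 activity-regulated genes set beside the members were picked because earlier results on these arrays showed them lower in deprived cortex, so their direction is a description and no check of the labels (Fos -0.88 ± 0.15, Dusp6 -0.62 ± 0.09, SE). None of 45 tested markers of cell types and neighbouring tissues passed the adjusted threshold. At an unadjusted p under 0.05, 1 was called, the astrocyte transporter Slc1a2 at 0.38 ± 0.14 (SE), against 4.79% of all tested probe sets. List medians were -0.03 for 8 neuronal, 0.01 for 7 astrocyte, 0.16 for 5 oligodendrocyte, 0.06 for 8 microglial, 0.15 for 9 vessel and meninges and 0.09 for 3 red-blood-cell markers. Their part in the members' values was not tested. The 3′ to 5′ signal ratio of beta-actin, a measure of RNA quality, was 1.58 ± 0.121 in deprived and 1.58 ± 0.181 in non-deprived samples (SD, n = 5, two-sided exact permutation p = 0.96). Median signals lay between 190.8 and 208.7 on the 10 arrays (exact permutation p = 0.294 between groups). Both p-values were 0.54 or more after Benjamini-Hochberg adjustment over 4 such measures, and the smallest p this design allows is 0.00794.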

How the data were processed

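Total RNA from 5 deprived and 5 non-deprived samples was hybridised to 1 array each, with about 10 µg labelled per the labels' protocols. The deposited values are signal intensities on a linear scale, 1 per probe set and array, made by the authors with MAS5 per the submitters' processing notes; no version is given in the sources used here. After trimming 2% at each end, the mean of the deposited values was 500.2 to 500.3 on every array, so values are relative to the array average. Intensities ran from 0 to 36786. There is no sequencing depth, and precision is set by the number of arrays.

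The table holds 12488 probe sets, of which 66 controls were left out. A platform annotation gave 10833 of the other 12422 a single symbol, 396 several and 1193 none; only single symbols were named, so Psme2, Ube2l3 and Ube2j2, whose probe sets carry several, are not described. Signals were converted to log2(signal + 16), and 7453 probe sets with a mean at or above the 40th percentile were tested in limma 3.58.1 (R 4.3.3; lmFit and eBayes with a trend, no covariate), which was first tested on simulated data. The sign is deprived minus non-deprived, and every p not called a permutation p is from this fit. Same-numbered samples correlated at 0.14, 0.18, 0.22, 0.23 and 0.02 in their deviations from group means, not all over 0.1, so the numbers were not taken to pair samples. Pairing was not excluded by this, since 4 of the 5 numbers correlated best with their own number.

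The members, lists and tests were chosen with earlier results of these data known. Described at probe-set level were, of each class, the 4 smallest p-values and 2 highest means, every unadjusted p under 0.05, genes with 2 or more tested probe sets, the catalytic subunits, the activators and the E2 enzymes of ubiquitin-like proteins or without a catalytic site, and the 3 smallest p-values of each other list. The other members are named to complete their class; they and the promoter motifs were chosen after the values were seen. Alternatives were other pseudocounts (1, 64), filters (none, 60th percentile) and scalings (quantile, median), a replicate block, eBayes without a trend, and leaving out each array.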

Additional observations from a re-analysis of the deposited data

Results flagged for a closer look

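Among 172 groups of 5 arrays examined, 10 (5.81%) held an array whose gap to the nearest other exceeded 0.71 of the group's range; chance gives about 5%. Deprived array 2 stood apart in Ube2v1, at 1589 against 2103.8 to 2293.4 on the other deprived arrays, in one probe set of Psmd11, at 634.9 against 545 to 551.2, and in Uba3, at 285.3 against 534.3 to 643.9. Non-deprived array 4 stood apart in Psmd3, at 2141 against 1585.7 to 1709.9, in the same probe set of Psmd11, at 533.7 against 579.8 to 593.9, and in Senp3, at 1221.4 against 1376.5 to 1420.2. Non-deprived array 3 stood apart in the dimmer tested probe set of Ube2z, at 331.8 against 237.5 to 258.3, and in Cdc34, at 403.3 against 580.9 to 658.3. Non-deprived array 2 stood apart in the dimmer tested probe set of Psmb5, at 407.7 against 355.1 to 368.1. Non-deprived array 1 stood apart in Anapc11, at 1725.2 against 1141 to 1272.5.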

How the results depend on the processing

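No member passed the adjusted threshold in any of the 18 other settings, and Ube2h kept an unadjusted p under 0.05 in all of them (log2 difference -0.30 to -0.23). Over all tested probe sets, 2 passed with a pseudocount of 64, 2 when only signals above the 60th percentile were kept, and 0 to 5 when one array was left out. Calls at the unadjusted level numbered 625 of 12422 without a filter (5.03%) and 223 of 4969 above the 60th percentile (4.49%), against 4.79% in the main fit. Members at that level numbered 2 without a filter (Psmc4 added), 3 under quantile normalization (Psme4 and Ube2a added; 3.12% of members against 4.64% of all probe sets), 4 under median scaling (Usp10 added to those; 4.17% against 4.92%), 2 without a trend (Usp38 added) and 1 to 7 with an array left out. They numbered 7 without deprived array 1 (7.29% against 5.27%), 5 without deprived array 2 (5.15% against 4.75%) and 5 without deprived array 3 (5.21% against 5.69%). They numbered 2 without deprived array 4, 3 without deprived array 5, 4 without non-deprived array 1 and 3 without non-deprived array 4, each share below that of all probe sets. Among other pathway genes the count was 2 to 8 with an array left out, where 3.53% to 5.69% of all tested probe sets were called. With the replicate number as a block, 6 of all tested probe sets passed the adjusted threshold, no member among them, and 3 members (Psmb6, Psmd5, Ube2h) had an unadjusted p under 0.05 (3.12% against 6.33% of all probe sets). As a hint from the data and not the design, 4 of the 5 replicate numbers correlated best with their own number. The median of the E2 enzymes was -0.12 under median scaling and -0.12 to -0.058 with an array left out. The cause of these changes was not tested.

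Of the 86 probe sets chosen for description at probe-set level, 58 kept their sign in every setting and none of the 86 passed the adjusted threshold in any. The signs of members named only to complete their class were not followed over the settings. Quantile normalization turned Usp9x (0.018), Usp34 (0.015) and Ube2d3 (0.0083). Median scaling turned Psmd11 (-0.012), Usp2 (-0.017) and Usp3 (-0.015). Leaving out one array at a time changed the sign in at least one omission for 28 probe sets, whose log2 differences ran as follows. Members of the proteasome were Psma3 (-0.012 to 0.11), Psmb4 (-0.086 to 0.0065), Psmd11 (-0.094 to 0.11), Psmd3 (-0.13 to 0.0092), Psme1 (-0.23 to 0.0012), Psme3 (-0.083 to 0.066), the dimmest tested probe set of Psmc3 (-0.047 to 0.12), Psmb5 (-0.12 to 0.048 and -0.084 to 0.21) and Psmb10 (-0.15 to 0.0087). E2 enzymes were Ube2v1 (-0.14 to 0.0074), the further probe set of Ube2h (-0.22 to 0.048), Ube2d3 (-0.099 to 0.078), the dimmer probe set of Ube2z (-0.0019 to 0.14), Ube2d2a (-0.11 to 0.050 and -0.15 to 0.026) and Ube2f (-0.12 to 0.16). Proteases were Usp9x (-0.061 to 0.044), Usp34 (-0.079 to 0.046 and -0.017 to 0.14), the dimmer probe set of Usp15 (-0.29 to 0.027), Usp2 (-0.037 to 0.047), Usp19 (-0.11 to 0.044), Usp7 (-0.072 to 0.23 and -0.064 to 0.0055) and Usp3 (-0.029 to 0.057). Other genes were Uba3 (-0.18 to 0.11) and Ubl3 (-0.094 to 0.014).

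Medians of the 20S beta and 19S ATPase classes, below 0 as reported, were 0.03 and 0.0019 when only probe sets without a specificity suffix were used. The number of arrays, 5 a group, limits the precision: the median standard error of 0.11 leaves differences of the size seen in most members undetectable one by one.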
